A study of Mus musculus with 2 samples.

Results

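The small nuclear RNAs (snRNAs), small nucleolar RNAs (snoRNAs) and small Cajal-body RNAs (scaRNAs) detected in macrophage nuclei are described here. A gene was a member when the annotation gave its transcript the biotype snRNA, snoRNA or scaRNA and its expected counts by RSEM summed to at least 10 over both libraries, with Rn7sk left out by rule. By that rule 82 of 2941 annotated entries of the 3 biotypes were members, among 55536 annotated genes in all and 16387 genes that reached 10 counts. The members were 33 of 1383 snRNA entries, 41 of 1507 snoRNA entries and 8 of 51 scaRNA entries. The members were thus chosen by their RSEM counts, and the levels below are a description and carry no test.

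RNA depleted of ribosomal RNA was sequenced from the nucleoplasmic fraction, also labelled nuclear, of bone marrow-derived macrophages of C57BL/6J mice. The cells were primary, and age and sex were not collected. They received 100 ng/ml lipid A for 12 h, were kept without it for 12 h and received 100 ng/ml again for 90 min. Lipid A is the part of bacterial lipopolysaccharide that activates the receptor TLR4. All libraries belong to this 1 group of 2 replicates, which are labelled biological but share 1 donor entry. Whether separate animals or cultures were used is not labelled. The starting RNA was 500 ng for replicate 2 and 1 µg for replicate 1, and the labelled size range was 250 to 400. No condition was compared and no p-value was computed.

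Gene rows held 17789556 expected counts in replicate 2 and 29400127 in replicate 1 by RSEM, and 31973596 estimated counts in replicate 2 and 39148498 in replicate 1 by kallisto. Where a library is at 0, up to 3 counts could have been missed, which corresponds to 0.169 CPM (counts scaled to the library total) in replicate 2 and 0.102 in replicate 1. This covers counting error only. The macrophage markers Adgre1, Csf1r, Cd68, Lyz2 and Itgam lay between 34.3 and 1099 TPM, while S100a8, S100a9 and Col1a1 lay under 1 TPM and Cd3e was listed at 0 in both libraries.

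The snRNAs are the catalytic and recognition RNAs of the spliceosome. U1 pairs with the 5′ splice site and U2 with the branch point, and U12 takes the place of U2 in the minor spliceosome; each carries an Sm site on which a ring of Sm proteins is assembled. Most snoRNAs guide the chemical modification of ribosomal RNA: box C/D snoRNAs guide 2′-O-methylation through fibrillarin and H/ACA snoRNAs guide pseudouridylation through dyskerin. A few, among them U3 and the Snora73 RNAs (also called U17), serve the cleavage of the ribosomal RNA precursor instead. The scaRNAs are built like snoRNAs but gather in Cajal bodies, where they guide the modification of snRNAs. Many snoRNAs and scaRNAs are cut out of introns of host genes, whereas U1, U2 and U3 have promoters of their own.

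The sequences of the U1 and U2 entries are shown first, since they decide how reads could be shared among the members. They are GENCODE M21 transcripts on mm10, written 5′ to 3′ as DNA. In Rnu1a1 (chr11:87422867-87423030, + strand) and Rnu1b1 (chr3:96359953-96360117, − strand), capitals mark ACTTACCTG, the letters at the 5′ end that pair with the 5′ splice site, and ATTTNTG, the letters searched as an Sm site. In Gm22513 (chr12:54696782-54696945, + strand) capitals mark the base that differs from Rnu1a1, and in Gm25890 (chr3:96486555-96486719, − strand) the base that differs from Rnu1b1.
Rnu1a1: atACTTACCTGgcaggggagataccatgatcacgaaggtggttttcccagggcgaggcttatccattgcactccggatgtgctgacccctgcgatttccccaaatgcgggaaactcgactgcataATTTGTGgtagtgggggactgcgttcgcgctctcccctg
Gm22513: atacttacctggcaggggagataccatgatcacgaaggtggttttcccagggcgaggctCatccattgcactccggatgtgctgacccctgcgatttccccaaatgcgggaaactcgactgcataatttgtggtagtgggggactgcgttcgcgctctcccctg
Rnu1b1: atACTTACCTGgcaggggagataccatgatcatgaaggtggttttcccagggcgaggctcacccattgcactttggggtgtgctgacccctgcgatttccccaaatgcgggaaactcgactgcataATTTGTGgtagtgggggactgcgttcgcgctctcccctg
Gm25890: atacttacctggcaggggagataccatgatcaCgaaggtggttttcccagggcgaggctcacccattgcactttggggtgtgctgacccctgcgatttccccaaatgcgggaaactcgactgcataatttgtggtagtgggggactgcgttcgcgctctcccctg

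Rnu2-10 (chr11:101658238-101658428, + strand) is shown with GTAGTA, which lies in the stretch that pairs with the branch point, and ATTTNTG in capitals. In Gm23472 (chr1:72236946-72237136), Gm25939 (chr1:72255008-72255198) and Gm25360 (chr1:72226240-72226430), all on the + strand, capitals mark the bases that differ from Rnu2-10.
Rnu2-10: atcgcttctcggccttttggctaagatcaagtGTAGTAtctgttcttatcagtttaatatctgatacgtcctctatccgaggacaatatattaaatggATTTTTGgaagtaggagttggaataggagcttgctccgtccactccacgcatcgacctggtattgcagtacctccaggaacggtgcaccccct
Gm23472: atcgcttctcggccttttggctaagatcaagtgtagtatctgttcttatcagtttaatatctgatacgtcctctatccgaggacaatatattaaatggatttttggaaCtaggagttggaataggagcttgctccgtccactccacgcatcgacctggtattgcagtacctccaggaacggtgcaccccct
Gm25939: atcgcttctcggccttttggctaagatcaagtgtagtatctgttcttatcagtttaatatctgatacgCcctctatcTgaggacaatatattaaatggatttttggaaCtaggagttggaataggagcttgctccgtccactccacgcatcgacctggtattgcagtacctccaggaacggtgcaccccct
Gm25360: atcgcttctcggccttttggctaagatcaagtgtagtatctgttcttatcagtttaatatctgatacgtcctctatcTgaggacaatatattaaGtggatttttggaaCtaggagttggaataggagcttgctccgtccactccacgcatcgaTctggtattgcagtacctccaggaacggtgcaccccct

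Counted from 1 at the 5′ end, Gm22513 carried T60C against Rnu1a1 and Gm25890 carried T33C against Rnu1b1. Rnu1a1 and Rnu1b1 were 95.8% identical, at 7 edits. Against Rnu2-10, Gm23472 carried G109C, Gm25939 carried T69C, C78T and G109C, and Gm25360 carried C78T, A95G, G109C and C154T. ATTTNTG was present in all 33 snRNA members and in 20.5% of the 1383 annotated snRNAs. ACTTACCTG was present in 18 members and 3.98% of annotated snRNAs, and GTAGTA in 11 members and 3.69%. These 3 strings were searched on the transcript strand only, and ATTTNTG does not overlap the other 2 in the sequences shown.

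U1 and U2 sequences made up nearly all of the snRNA counts. The 18 entries linked to Rnu1a1 by edit distances of at most 10%, of 8 distinct sequences, are called the U1 group, and the 11 linked in the same way to Rnu2-10, of 7 distinct sequences, the U2 group. Both groups together held 99.5% of the members' snRNA counts in replicate 2 and 98.9% in replicate 1. The U1 group summed to 7226 expected counts in replicate 2 and 13693 in replicate 1, and the U2 group to 15116 in replicate 2 and 37183 in replicate 1. U2 counts exceeded U1 counts in both libraries, with a U1 to U2 ratio of 0.478 in replicate 2 and 0.368 in replicate 1. By kallisto the same ratio was 0.477 in replicate 2 and 0.342 in replicate 1.

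On the TPM scale, which divides counts by effective length and scales each library to the same sum, the order of U1 and U2 was not stable. The U1 group summed to 43523 ± 5746 TPM and the U2 group to 43923 ± 3302 TPM by RSEM (SD, n = 2), which differ by less than their spread. The U1 to U2 ratio of RSEM TPM was 1.14 in replicate 2 and 0.853 in replicate 1, on either side of 1. By kallisto it was 0.680 in replicate 2 and 0.461 in replicate 1. The effective length, the number of positions at which a fragment could start, was 7.06 nt for Rnu1a1 and 16.45 nt for Rnu2-10 in replicate 1 by RSEM, so U1 counts were divided by the smaller length.

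**Figure D1:**
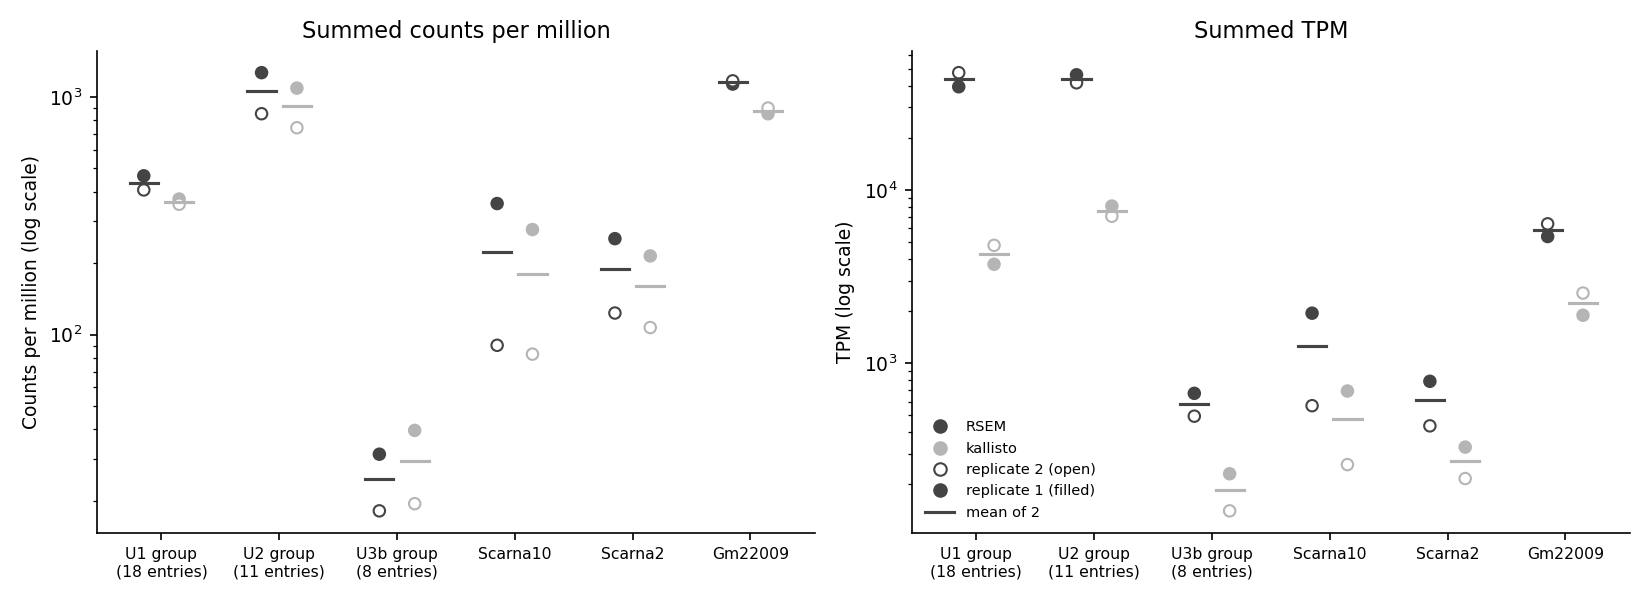
Summed CPM (left) and summed TPM (right), both on log scales, for the U1, U2 and U3b groups, Scarna10, Scarna2 and Gm22009 by RSEM (dark) and kallisto (light), with replicate 2 as open circles, replicate 1 as filled circles and lines for the mean of both. U2 lies above U1 in counts by both tools, at 15116 against 7226 RSEM counts in replicate 2, while the RSEM TPM of both groups averages near 43523.

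Within each group the counts of single loci rest on how the tools split shared reads. Rnu2-10, Gm23849, Gm24950 and Gm23971 have the same sequence and were each listed at 1628 expected counts in replicate 2 and 4976 in replicate 1. The posterior standard deviations that RSEM gave these 4 entries ran from 1543 to 2222 counts in replicate 1. Gm23444 and Gm23472, identical to each other, were each listed at 2717 counts in replicate 2 and 5057 in replicate 1. Rnu1a1 and 6 entries identical to it were each listed at 532.2 counts in replicate 2 and 1082 in replicate 1. These equal values are a split of 1 pool of reads, so the count of a single locus is not a measurement. The sum over a sequence can also rest on a split with near-identical sequences, as the posterior SDs of Gm26244 and Gm24497 given below show.

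Some entries that differ from the others by 1 or more bases had narrow posterior SDs, and some did not. Gm25939, which differs from Rnu2-10 at 3 bases, of which T69C is in no other U2 entry, was listed at 2749 counts in replicate 2 and 4906 in replicate 1, with a posterior SD of 0.91 counts in replicate 1. Gm22513, a U1 entry on chromosome 12 with the single difference T60C, reached 2042 counts in replicate 2 and 3561 in replicate 1, with a posterior SD of 0.49 counts. It had the highest mean TPM of any member, at 13529 in replicate 2 and 10324 in replicate 1. Gm26244, a U1 entry with the single difference G152C, had a posterior SD of 315.1 on 320.7 counts in replicate 1. Gm25890, identical to Gm22614 and 1 base from Rnu1b1, was listed at 522.4 counts in replicate 2 and 880.6 in replicate 1. Rnu1b1 and Rnu1b2, identical to each other, were listed at 14.1 counts each in replicate 2 and 25.2 in replicate 1. Rnu1b6 and 2 identical entries had 9.96 counts each in replicate 2 and 58.5 in replicate 1.

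Over all members, 28 had another member of identical sequence, and the 82 entries held 62 distinct sequences. In replicate 1, 33 members had a posterior SD above 20% of their count, of which 23 were snRNAs and 10 snoRNAs, and none were scaRNAs.

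Rnu12, which encodes U12, stood apart from U1 and U2. It is 151 nt long (chr15:83149644-83149794, + strand), and ATTTNTG is in capitals.
Rnu12: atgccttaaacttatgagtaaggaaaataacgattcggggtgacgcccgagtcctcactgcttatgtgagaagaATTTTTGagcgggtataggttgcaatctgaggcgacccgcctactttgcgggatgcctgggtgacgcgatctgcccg
RSEM listed it at 2 expected counts in replicate 2 and 57 in replicate 1, whereas kallisto listed 192 estimated counts in replicate 2 and 607 in replicate 1. The log2 ratio of RSEM over kallisto CPM was -4.25 ± 1.78 (SD, n = 2). Between libraries its scaled RSEM count had a log2 ratio of -4.03, with a 95% counting interval from -7.36 to -2.36.

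The snoRNA members were led by 1 RNA that its name places elsewhere. Scarna10 (chr6:125186359-125186683, − strand), a Cajal-body RNA by name that the annotation files under snoRNA, had 1605 expected counts in replicate 2 and 10469 in replicate 1. Its scaled log2 ratio of replicate 2 over replicate 1 was -2.15, with a counting interval from -2.23 to -2.08. It held 45.4% of the snoRNA members' counts in replicate 2 and 53.3% in replicate 1. It overlaps exons of Ncapd2 and Gm28967, so reads from within the overlap cannot be told apart. RSEM listed Ncapd2 at 180.2 counts over both libraries, and the part of either gene in the Scarna10 counts was not tested. Gm23547 followed with 388.1 counts in replicate 2 and 1263 in replicate 1, Gm23262 with 177.8 in replicate 2 and 1410 in replicate 1, and Gm22988 with 456.2 in replicate 2 and 665.2 in replicate 1. These overlap exons of Phb2, Eif4g2 and Eif4a1. The 5 leading snoRNA members held 75.1% ± 1.20 of the snoRNA counts (SD, n = 2).

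U3, the box C/D snoRNA that starts the cleavage of the ribosomal RNA precursor, is annotated at 4 Rnu3b loci, each with an entry of 216 nt and one of 215 nt from the same start. The first is shown (Rnu3b1, chr11:87443237-87443452, + strand), with the base that the shorter entry lacks in capitals.
Rnu3b1 (216 nt): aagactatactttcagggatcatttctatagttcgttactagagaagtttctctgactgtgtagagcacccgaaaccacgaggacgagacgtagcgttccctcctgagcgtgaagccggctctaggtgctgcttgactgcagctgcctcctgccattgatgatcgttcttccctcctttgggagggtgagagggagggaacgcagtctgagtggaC
Kallisto placed every Rnu3b count on the 216 nt entries, at 155.6 estimated counts each in replicate 2 and 387.3 in replicate 1, and listed the 215 nt entries at 0. RSEM split them, with 55.6 expected counts on each 216 nt entry in replicate 2 and 100.9 in replicate 1, and 25.1 on each 215 nt entry in replicate 2 and 130.1 in replicate 1. Summed over the 8 entries, RSEM held 323 counts in replicate 2 and 924 in replicate 1, and kallisto 622.3 in replicate 2 and 1549 in replicate 1. The summed log2 ratio of RSEM over kallisto CPM was -0.22 ± 0.16 (SD, n = 2), against -1.08 ± 0.63 for each 216 nt entry alone. Rnu3a, at a locus on chromosome 10, behaved likewise: RSEM listed its 214 nt entry at 0 counts in replicate 2 and 99.5 in replicate 1, and its 213 nt entry at 23 in replicate 2 and 42.5 in replicate 1. Kallisto listed the 214 nt entry at 112.6 in replicate 2 and 320.7 in replicate 1, and the 213 nt entry at 0 in both.

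Snora73a (chr4:132352775-132352979) and Snora73b (chr4:132352322-132352526), both on the − strand within Snhg3, were the leading RNAs of the H/ACA kind by symbol. In Snora73a capitals mark an ACA 3 bases before the 3′ end, the closing letters of H/ACA RNAs, and in Snora73b the bases that differ from Snora73a.
Snora73a: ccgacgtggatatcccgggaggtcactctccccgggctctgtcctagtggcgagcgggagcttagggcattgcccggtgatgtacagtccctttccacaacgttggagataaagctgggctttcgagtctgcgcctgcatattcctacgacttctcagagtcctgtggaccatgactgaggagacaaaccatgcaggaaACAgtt
Snora73b: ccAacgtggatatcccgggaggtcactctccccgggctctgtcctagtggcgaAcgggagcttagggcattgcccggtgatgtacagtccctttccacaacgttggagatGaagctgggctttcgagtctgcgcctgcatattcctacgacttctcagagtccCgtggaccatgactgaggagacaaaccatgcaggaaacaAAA
They are 96.6% identical, at 7 edits, and their reads were split with posterior SDs near 3 counts in replicate 1 (2.71 and 3.03). Snora73a had 57.4 expected counts in replicate 2 and 621.9 in replicate 1, and Snora73b 58.4 in replicate 2 and 778.8 in replicate 1. Both were lower in replicate 2 after scaling, by a log2 ratio of -2.89 for Snora73a (counting interval -3.31 to -2.50) and -3.19 for Snora73b (-3.60 to -2.81). The antisense gene Gm17300 overlaps both, and its part in these counts was not tested.

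An ACA at that position was found in 16 of 41 snoRNA members and in 18.3% of annotated snoRNAs. TGATGA together with CTGA, letters of boxes C and D, was found in 18 of 41 members and 25.2% of annotated snoRNAs. In scaRNA members the counts were 3 of 8 for ACA, against 49.0% of annotated scaRNAs, and 4 of 8 for TGATGA with CTGA, against 37.3%. These strings were searched on the transcript strand, and a match is a description of the letters only.

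Snord22 and Gm26447 show how short RNAs leave the TPM scale. Snord22, which in Xenopus is needed for the processing of 18S ribosomal RNA, is 126 nt long (chr19:8725866-8725991, + strand, within Snhg1), and Gm26447 is 129 nt long (chr16:23111301-23111429, + strand, within Eif4a2). Capitals mark CTGA in Snord22. Neither it nor TGATGA was found in Gm26447, and TGATGA was not found in Snord22.
Snord22: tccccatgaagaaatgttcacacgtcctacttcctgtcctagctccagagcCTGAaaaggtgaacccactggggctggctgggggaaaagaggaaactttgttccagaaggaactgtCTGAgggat
Gm26447: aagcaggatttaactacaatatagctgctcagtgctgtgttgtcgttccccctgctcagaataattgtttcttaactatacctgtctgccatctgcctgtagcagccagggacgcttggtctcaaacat
RSEM listed Snord22 at 24.9 expected counts in replicate 2 and 332.8 in replicate 1, and Gm26447 at 46.9 in replicate 2 and 626.8 in replicate 1. Both had an effective length of 0 and a TPM of 0 in both libraries. Kallisto gave Snord22 50.1 estimated counts in replicate 2 and 444.3 in replicate 1, and Gm26447 112.7 in replicate 2 and 746.6 in replicate 1. Snord17 (238 nt, within Snx5) had 124 expected counts and 125.2 TPM in replicate 2, and 415 counts and 204.3 TPM in replicate 1. Snord15a had 36 counts in replicate 2 and 152 in replicate 1, and Snord15b 15.8 in replicate 2 and 109.5 in replicate 1. Snora74a, of the H/ACA kind by symbol, had 60.3 in replicate 2 and 460.4 in replicate 1.

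Among scaRNA members Gm22009 outweighed all others. It is 343 nt long, lies in an intron of the importin gene Kpna4 (chr3:69085105-69085447, − strand) and had 20786 expected counts in replicate 2 and 33294 in replicate 1. Those were 87.5% of the counts of the 8 scaRNA members in replicate 2 and 74.0% in replicate 1. Its scaled count was close to equal between libraries, with a log2 ratio of -0.13 and a counting interval from -0.15 to -0.10. Its TPM was 6378 in replicate 2 and 5388 in replicate 1, the reverse order of the scaled counts. Kallisto listed it at 28717 counts in replicate 2 and 33258 in replicate 1.

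Scarna2 (chr3:108554338-108554751, − strand), a guide for the 2′-O-methylation of U2 in human cells, followed with 2194 expected counts in replicate 2 and 7451 in replicate 1. At 414 nt it was the longest member, and it lies outside any gene on its strand. Its scaled log2 ratio of replicate 2 over replicate 1 was -1.21, with a counting interval from -1.28 to -1.14. Gm25395 and Scarna6, both in introns of the autophagy gene Atg16l1, had 361 and 107 counts in replicate 2, against 2222 and 763 in replicate 1. Scarna13, in an intron of Snhg10, had 269 in replicate 2 and 1159 in replicate 1. Scarna13 (chr12:105031075-105031349, − strand) carries the ACA near its 3′ end, and Scarna6 (chr1:87784556-87784820, + strand) carries TGATGA and CTGA. Both are marked in capitals as examples of the 2 letter patterns searched, and a match does not set the build of the RNA.
Scarna13: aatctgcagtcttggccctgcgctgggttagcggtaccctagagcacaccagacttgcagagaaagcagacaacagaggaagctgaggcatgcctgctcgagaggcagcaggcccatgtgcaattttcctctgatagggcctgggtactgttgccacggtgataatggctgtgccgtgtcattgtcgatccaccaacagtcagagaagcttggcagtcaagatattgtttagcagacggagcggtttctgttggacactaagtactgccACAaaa
Scarna6: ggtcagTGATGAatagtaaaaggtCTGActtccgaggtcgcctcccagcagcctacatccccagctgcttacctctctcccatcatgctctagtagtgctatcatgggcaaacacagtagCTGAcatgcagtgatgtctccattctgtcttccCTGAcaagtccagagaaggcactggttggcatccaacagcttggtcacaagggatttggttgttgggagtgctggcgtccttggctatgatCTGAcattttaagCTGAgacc
These 4 scaRNAs were all lower in replicate 2 after scaling, with log2 ratios between -2.28 for Scarna6 and -1.21 for Scarna2. Gm26083, within Snhg20, had 34.6 counts in replicate 2 and 92.3 in replicate 1.

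As shares of the library the 3 biotypes ranked differently by count and by RSEM TPM, and in the same order by count and by kallisto TPM. The snRNA members took 0.151% ± 0.0345 of the expected counts, the scaRNA members 0.143% ± 0.0138 and the snoRNA members 0.0433% ± 0.0332 (SD, n = 2). The snRNA and scaRNA shares differed by less than their spread. In RSEM TPM the snRNA members took 9.10% ± 0.0594, the snoRNA members 1.85% ± 0.800 and the scaRNA members 0.770% ± 0.0187. In kallisto TPM these were 1.23% ± 0.00865, 0.262% ± 0.107 and 0.302% ± 0.0111, and the last 2 differed by less than their spread. The median member was listed at 2893 ± 616 TPM for snRNAs, 120.3 ± 50.5 for snoRNAs and 238.7 ± 92.1 for scaRNAs by RSEM, and at 288.0 ± 13.4, 40.0 ± 9.84 and 115.9 ± 70.3 by kallisto.

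The effective length differed between the biotypes, the tools and the libraries. In replicate 1 the median effective length of the members was 7.33 nt for snRNAs, 4.41 nt for snoRNAs and 63.0 nt for scaRNAs by RSEM, and 28.1, 24.7 and 74.6 nt by kallisto. In replicate 2 it was 6.05, 3.62 and 60.1 nt by RSEM, and 34.5, 28.8 and 101.1 nt by kallisto. RSEM medians were thus lower in replicate 2 than in replicate 1, and kallisto medians higher. Per kilobase of annotated length, the median member had 179.8 CPM for snRNAs, 79.7 for scaRNAs and 13.2 for snoRNAs, so the order of the biotypes was the same as in TPM.

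Whether an annotated small RNA was counted at all went with its length. None of the 1792 entries of up to 125 nt was a member, and the shortest member had 126 nt. Of entries of 126 to 149 nt 24 of 867 (2.77%) were members, of those of 150 to 199 nt 36 of 242 (14.9%), and of those of 200 nt or more 22 of 40 (55.0%). Kallisto gave at least 10 counts to 242, 156, 72 and 17 entries of these length classes. The 5 members under 10 counts by kallisto were the 215 nt Rnu3b and 213 nt Rnu3a entries, all in the longest class. RSEM listed an effective length of 0 for entries of up to 129 nt in replicate 1 and 131 nt in replicate 2, 1997 entries in replicate 1. The median annotated length was 107 nt for snRNAs, 127 nt for snoRNAs and 136 nt for scaRNAs, and the members' medians were 165, 153 and 268.5 nt. For every entry of up to 125 nt RSEM listed an effective length of 0, and 6 of the 1792 had a count above 0, so a count of 0 there does not show that the RNA is absent.

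**Figure D2:**
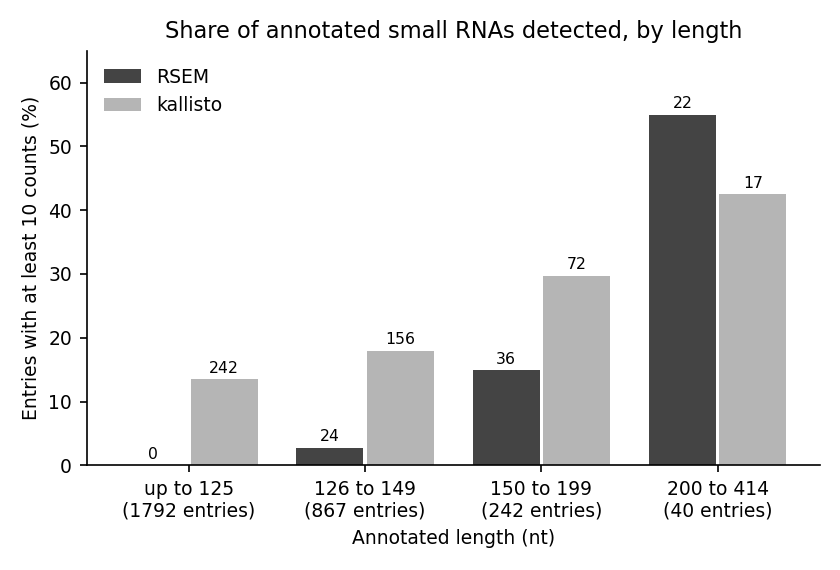
Percent of annotated snRNA, snoRNA and scaRNA entries with at least 10 counts summed over both libraries, by annotated length in nt, for RSEM (dark) and kallisto (light), with the number of entries above each bar. The RSEM bars run from 0 of 1792 entries of up to 125 nt to 22 of 40 of 200 nt or more.

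A list of 37 well-known symbols lay on both sides of the minimum. Of these symbols 34 had an entry, 19 had at least 1 member and Rnu4atac, Rnu6atac and Snora63 matched none. Rnu5g, one of the U5 RNAs, Rnu6, Rnu7, the U7 RNA of histone pre-mRNA processing, and Rnu11 of the minor spliceosome were listed at 0 expected counts in both libraries. Kallisto listed Rnu5g at 23.0 estimated counts in replicate 2 and 56.2 in replicate 1, Rnu6 at no more than 0.0527, and Rnu7 and Rnu11 at 0. Snord118, the U8 RNA, was at 0 by RSEM and had 6 counts in replicate 2 and 20 in replicate 1 by kallisto. Scarna9, Scarna17, Snora62 and Rnu73b were also at 0 by RSEM and between 10 and 65 counts per library by kallisto. Snord13, Snord14a, Snord14e, Scarna8, Scarna3a and Scarna3b had at most 3 expected counts in a library, and at most 38 estimated counts by kallisto.

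At the minimum itself the members just inside were Gm25791 with 10.5 counts and Gm22214, Gm24336 and Gm27295 with 12 each. Just outside lay Gm25813, Gm25967 and Snora78 with 6 each and Snora26 with 5.97. By kallisto those inside had between 27.5 and 865 counts and those outside between 6.68 and 114, so the ranges overlapped. Of the 2859 entries below the minimum 2778 were at 0 in both libraries.

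Replicate 2 held less of the small RNAs than replicate 1. After TMM scaling 78 of 82 members had a log2 ratio of replicate 2 over replicate 1 below 0. Of all 16387 genes with at least 10 counts 8046 did. The median was -1.20 over the members, against 0.01 over all these genes. The median was -0.71 for snRNAs, -1.81 for snoRNAs and -1.38 for scaRNAs, unchanged with the low library of the 4 members at 0 or 0.01 set to 3 counts. More than 2-fold lower were 49 of 82 members (59.8%), against 7.17% of all genes: 15 of 33 snRNAs (45.5%), 29 of 41 snoRNAs (70.7%) and 5 of 8 scaRNAs (62.5%). More than 2-fold higher was 1 member, Gm24924, against 9.14% of all genes. With library totals in place of TMM the shares more than 2-fold lower were 30.3% for snRNAs, 65.9% for snoRNAs and 62.5% for scaRNAs. Of the 56 members with at least 100 counts 32 were more than 2-fold lower. The 95% counting interval lay below 0 for 65 members and above 0 for 1. It covers counting error only and not variation between replicates. The matching shares over all genes are not given, so these last counts have no background beside them.

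The members are not independent, since identical copies share reads. With entries of identical sequence summed the snRNA median was -1.05 and the snoRNA median -2.19. The shares more than 2-fold lower were then 52.6% for snRNAs and 74.3% for snoRNAs. The 215 nt Rnu3b entries, counted singly above, had -1.81 each, while the 216 nt entries from the same starts had -0.30 each. Summed over groups, the log2 ratio was -0.37 for U1 (counting interval -0.41 to -0.33), -0.75 for U2 (-0.77 to -0.72) and -0.96 for the U3b group (-1.15 to -0.78). By kallisto it was -0.46, -0.94 and -1.41. In RNA from many cells, fewer nuclei of a kind and less RNA per nucleus cannot be told apart, and the amount of RNA, the depth and the replicate also cannot be told apart here.

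Among members with at least 100 counts the lowest ratios by RSEM were those of snoRNAs within protein-coding genes or Snhg3. Gm25776, within Gtf2a1, had 8 expected counts in replicate 2 and 367 in replicate 1, a log2 ratio of -4.90 (counting interval -6.19 to -3.97). Gm26397, within Tomm20, had 8 counts in replicate 2 and 131 in replicate 1, a ratio of -3.42. Gm26448, within Rpsa, had 17 in replicate 2 and 236 in replicate 1, a ratio of -3.21. Snora73b and Gm26447 followed at -3.19 and -3.17. By kallisto these RNAs were less far apart between the libraries. Kallisto listed Gm25776 at 60 counts in replicate 2 and 477 in replicate 1, a ratio of -3.07, outside its RSEM counting interval. The kallisto ratio was -1.85 for Gm26397, -2.78 for Gm26448 and -2.81 for Gm26447. Snora73a and Snora73b summed had -2.69 by kallisto and -3.04 by RSEM. At the other end, apart from Gm24924, Gm22988 within Eif4a1 had a ratio of 0.01 and Gm22009 of -0.13. The U1 entries Gm25890 and Gm22614 had -0.20 each.

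At 0, or 0.01, in 1 library were 4 members. Gm24924, an entry of the U1 group, was listed at 134.1 counts in replicate 2 and 0.01 in replicate 1. Its posterior SD in replicate 1 was 262.3 counts, and kallisto listed 847.5 counts in replicate 2 and 109.9 in replicate 1. Rnu3a of 214 nt was listed at 0 counts in replicate 2 and 99.5 in replicate 1, and summed with the 213 nt entry Rnu3a had a log2 ratio of -2.05 by RSEM (counting interval -2.78 to -1.43) and -1.59 by kallisto. For Gm24924 and Rnu3a the low values rest on how reads were split between near-identical entries, so they give no bound on the RNA. Gm25848 and Gm25394, named here after their values were seen, were at 0 in replicate 2 and at 43 and 21 in replicate 1 by RSEM. Against a floor of 3 counts per library they were at least 9.77-fold and 4.77-fold lower in replicate 2. These bounds hold for RSEM counts only. Kallisto listed Gm25848 at 49 counts in replicate 2 and 107 in replicate 1, a log2 ratio of -1.21. It listed Gm25394 at 7 in replicate 2 and 35 in replicate 1, a ratio of -2.33. Over the 78 members counted in both libraries the log2 ratio ran from -5.31 to 0.54.

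**Figure D3:**
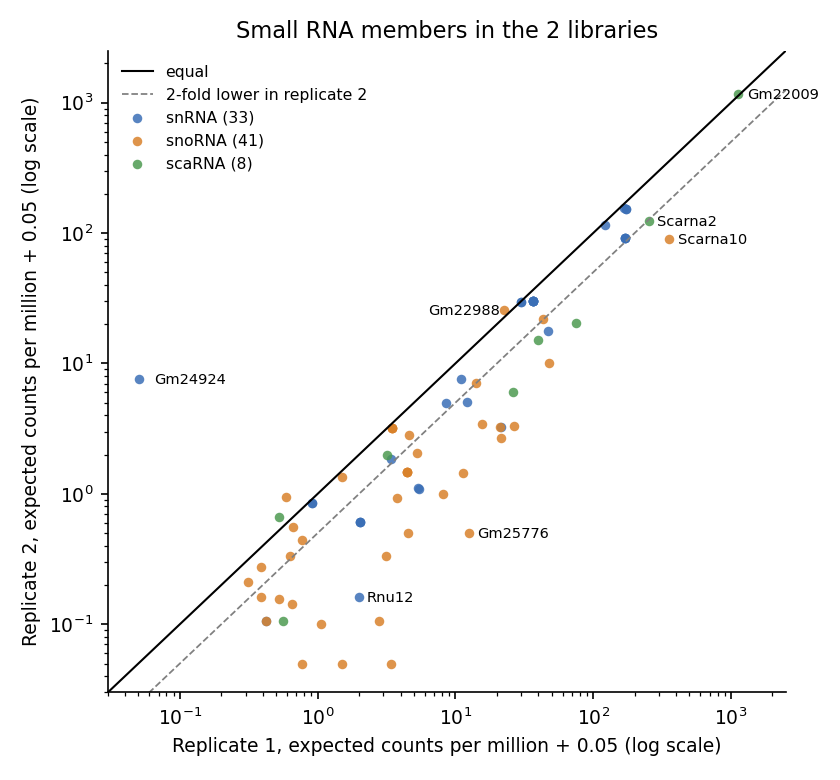
Expected CPM plus 0.05 in replicate 1 (horizontal) and replicate 2 (vertical) for the 82 members, both axes on log scales, coloured by biotype, with the line of equality and the line 2-fold below it. All but 4 members have a log2 ratio below 0 after scaling, and Gm22009 lies on the line of equality at the upper right.

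On the TPM scale the median of each biotype was less negative, but the level of all genes was shifted as well. TPM was higher in replicate 2 for 16 of 33 snRNA members, 8 of 41 snoRNA members and 2 of 8 scaRNA members. With log2(TPM + 1) in place of scaled counts the snRNA median was -0.065, the snoRNA median -1.26 and the scaRNA median -0.99. The median TPM over all genes tested was itself higher in replicate 2, at 3.02 against 2.18 in replicate 1. The share of all genes with a higher TPM in replicate 2 is not given here, so these values have no background beside them. The snRNA effective length was lower in replicate 2 by RSEM, as given above, and its part in this was not tested.

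The host genes of the snoRNA members were compared between the libraries as well. Of the snoRNA members 38 of 41 (92.7%) lay within a gene on the same strand, in 27 distinct hosts. Of snoRNA entries below the minimum 627 of 1466 (42.8%) did, and of those of 126 nt or longer 196 of 774 (25.3%). Of the 27 hosts 1 was more than 2-fold lower in replicate 2 and 0 were more than 2-fold higher, where 7.17% of all genes were lower and 9.14% higher, and their median log2 ratio was -0.05, between -1.63 and 0.60. Host levels had a median of 11.7 TPM, against 4.26 TPM for hosts of the entries below the minimum. Snhg3, host of both Snora73 RNAs, had 18.5 TPM in replicate 2 and 10.5 in replicate 1, with a scaled ratio of 0.37, where its snoRNAs had -3.19 and -2.89. Gtf2a1, host of Gm25776, had 12.7 TPM in replicate 2 and 14.6 in replicate 1, a ratio of -0.25. Kpna4, host of Gm22009, had 14.1 TPM in replicate 2 and 12.7 in replicate 1, a ratio of 0.20. The host that was lower is Tex14, at 0.04 TPM in replicate 2 and 0.22 in replicate 1, which holds the 8 Rnu3b entries. These 8 are among the 38 by position only, since U3 has promoters of its own. The comparison of members with entries below the minimum rests on the counts that chose them, and 14 snoRNA members overlap a host exon, so host reads may be among theirs.

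Of the snRNA members 8 of 33 (24.2%) lay within a gene on the same strand, and their hosts had a median of 0.37 TPM. Of snRNA entries below the minimum 22.1% did, and of those of 126 nt or longer 86 of 257 (33.5%). Of the scaRNA members 6 of 8 did, against 25 of 43 entries below the minimum and 23 of 36 of those of 126 nt or longer.

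**Figure D4:**
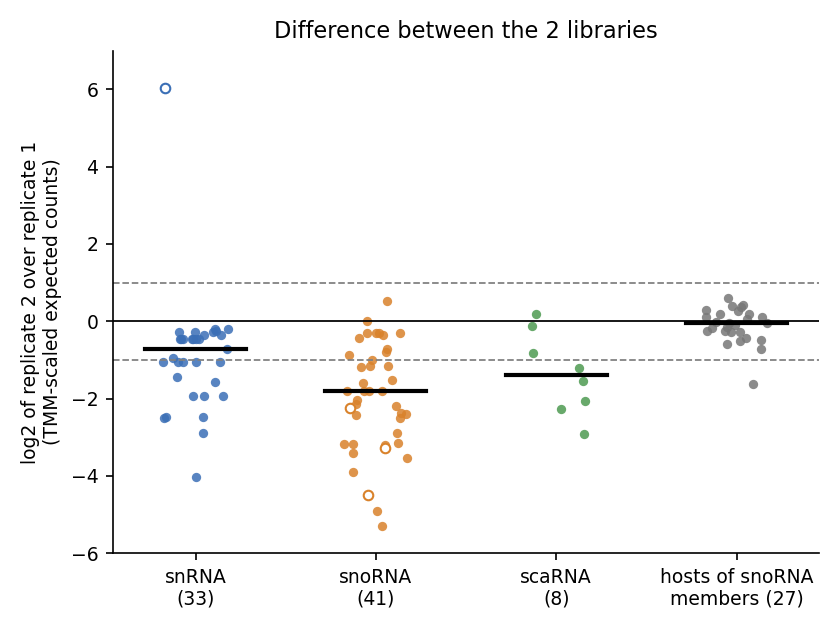
Log2 ratio of replicate 2 over replicate 1 in TMM-scaled expected counts for the members of each biotype and for the 27 host genes of snoRNA members, with black bars for medians, dashed lines at 2-fold and open circles for the 4 members at 0 or 0.01 in 1 library, drawn with 3 counts in that library. The snoRNA members centre on -1.81 and their hosts on -0.05.

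RSEM and kallisto counted most of the abundant members alike and a set of others, short and longer, apart. The ratio is the mean over both libraries of log2 RSEM CPM over kallisto CPM, and RSEM counts chose the members, so it is a description. Its median was 0.18 for snRNAs, -0.47 for snoRNAs and 0.25 for scaRNAs, against -0.08 over all genes tested. RSEM was more than 2-fold lower for 24 of 82 members (29.3%), with 18.0% over all genes: 5 snRNAs, 17 snoRNAs and 2 scaRNAs. It was more than 2-fold higher for 5 members (6.10%), with 1.14% over all genes, and these were the 215 nt and 213 nt entries of the U3 loci. By length the median was -1.01 for members of 126 to 149 nt, 0.18 for 150 to 199 nt and 0.16 for 200 nt or more. More than 2-fold lower by RSEM were 13 of 24, 6 of 36 and 5 of 22 members of these classes. The snoRNA median was -0.48 in replicate 2 and -0.00 in replicate 1, with 36.6% of snoRNA members more than 2-fold lower in replicate 2 and 22.0% in replicate 1.

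The abundant members differed little between the tools. The U1 group had a ratio of 0.26 ± 0.09, the U2 group 0.21 ± 0.01 and Gm22009 0.40 ± 0.02 (SD, n = 2). Scarna10 had 0.24 ± 0.17 and Scarna2 0.22 ± 0.03. Apart from the U3 entries, the highest ratio was that of Gm23444 and Gm23472, the U2 entries with G109C, at 0.65 ± 0.11. Gm24497, a U2 entry with G109C and C186A that was named after its values were seen, went the other way: RSEM listed 56.8 counts in replicate 2 and 624.9 in replicate 1, and kallisto 2389 in replicate 2 and 3262 in replicate 1. Its posterior SD was 1046 counts in replicate 1, larger than the count. Gm24497 differs from Gm23444 and Gm23472 only by C186A, so reads can be split among these entries. Their single ratios depend on that split, and the U2 group summed had 0.21.

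The lowest ratios with both libraries above 0 were those of Gm24336 and Gm22442, of 146 nt and 144 nt. Their sequences are shown for their length and ends (Gm24336, chr19:44113979-44114124, − strand; Gm22442, chr11:69350518-69350661, − strand). Capitals mark the ACA 3 bases before the 3′ end, which was not found in Gm24336.
Gm24336: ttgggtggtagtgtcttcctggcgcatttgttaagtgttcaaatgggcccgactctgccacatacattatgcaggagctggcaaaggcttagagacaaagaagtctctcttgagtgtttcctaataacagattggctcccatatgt
Gm22442: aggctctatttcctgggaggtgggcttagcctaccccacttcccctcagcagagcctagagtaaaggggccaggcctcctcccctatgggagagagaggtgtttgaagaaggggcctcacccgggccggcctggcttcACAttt
Gm24336, filed as a snoRNA within Cwf19l1, had 2 expected counts in replicate 2 and 10 in replicate 1 by RSEM, and 236 estimated counts in replicate 2 and 629 in replicate 1 by kallisto, a log2 ratio of -5.65 ± 0.21. Gm22442, filed as a scaRNA within Chd3, had 11 counts in replicate 2 and 14 in replicate 1 by RSEM, and 245 in replicate 2 and 739 in replicate 1 by kallisto, a ratio of -4.43 ± 1.19. Gm23119, the other short scaRNA member at 140 nt, had 1 count in replicate 2 and 15 in replicate 1 by RSEM, and 38 in replicate 2 and 165 in replicate 1 by kallisto. RSEM effective lengths in replicate 1 were 3.08 nt for Gm24336 and 2.76 nt for Gm22442, against 22.8 and 22.3 nt by kallisto.

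**Figure D5:**
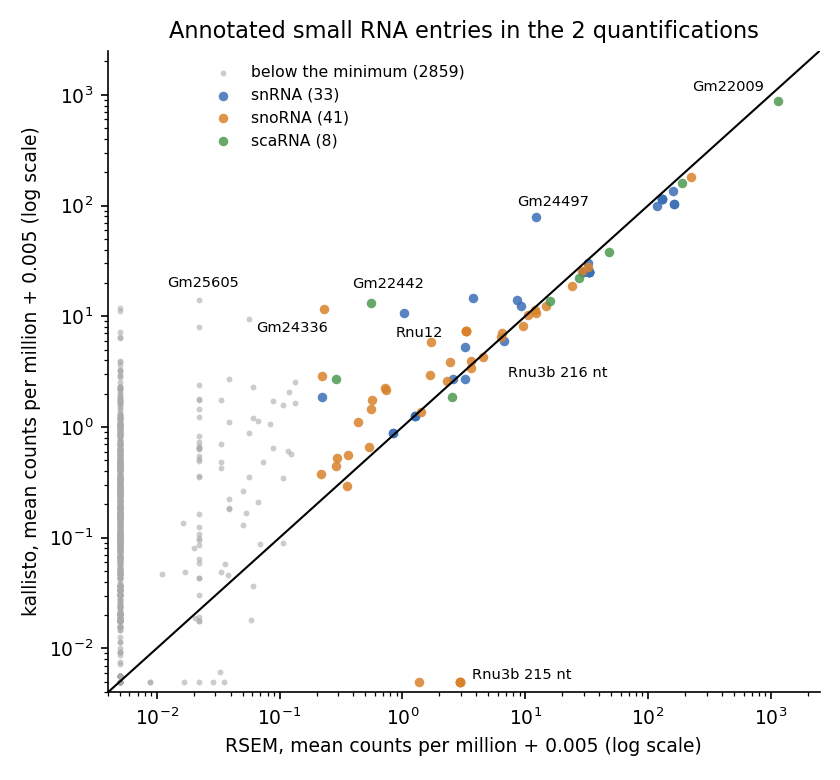
Mean CPM plus 0.005 by RSEM (horizontal) and kallisto (vertical) for 2941 annotated entries, both axes on log scales, with members coloured by biotype, entries below the minimum in grey and the line of equality. Abundant members lie along the line, the 215 nt Rnu3b entries lie at 0 by kallisto, and grey entries at 0 by RSEM reach several CPM by kallisto.

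The genes of the proteins that build these particles were taken from lists of known roles. Of 70 listed genes 69 were found and 54 reached 1 TPM in both libraries by RSEM, against 49 by kallisto. More than 2-fold lower in replicate 2 were 2 of the 69, Gemin4 and Snrnp25, and more than 2-fold higher was Gemin8, where 7.17% of all genes were lower and 9.14% higher.

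All 6 box C/D proteins reached 1 TPM, with a median of 4.84 TPM. Nop56, a core protein, was highest at 11.3 ± 1.92 TPM, and the assembly factor Nufip1 lowest at 1.34 ± 0.431 TPM (SD, n = 2 here and below). Of the 6 H/ACA proteins 3 did, with Gar1 highest at 4.25 ± 1.99 TPM and the assembly factor Shq1 lowest at 0.590 ± 0.156. Of the 11 Cajal-body and SMN-complex genes 4 did. Among these Strap was highest at 5.0 ± 0.198 TPM and Gemin8 lowest at 0.235 ± 0.233.

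The Sm and LSm ring proteins reached 1 TPM for 12 of 14 genes, with Snrpd1 highest at 8.56 ± 3.70 TPM and Snrpf lowest at 0.585 ± 0.00707. All 5 proteins of the U1 and U2 particles did, with Snrnp70, the U1 70K protein, highest at 45.8 ± 2.10 TPM and Snrpa1 lowest at 6.16 ± 3.83. Of the 7 proteins of the minor spliceosome 5 did, with Zcrb1 highest at 27.4 ± 1.39 TPM and Snrnp25 lowest at 0.285 ± 0.134. Of the genes of snRNA transcription and processing 19 of 20 found did. The cap-modifying enzyme gene Tgs1 was highest at 21.8 ± 2.21 TPM, and Snapc2, of the complex that binds snRNA promoters, lowest at 1.28 ± 0.424.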

How the data were processed

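Each library had 2 quantifications, deposited as 1 table per library on mm10 with GENCODE M21. Per the file headers, the authors' RSEM tables give an expected count and TPM per gene, with effective length and posterior SD, and the kallisto tables hold estimated counts with TPM for each transcript, summed here per gene. The aligner, the versions and the strand setting are not stated in the sources, so overlapping and antisense genes can share reads. Rows naming no gene were left out (0.272% of the total in replicate 2, 0.766% in replicate 1). Biotypes came from the kallisto target names.

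Expected counts were rounded and scaled with TMM factors (edgeR 4.0.16: 1.06 in replicate 2, 0.942 in replicate 1). Log2 ratios used 0.5 as prior count, adjusted to each library's size, and a difference beyond 2-fold was counted over all genes of at least 10 summed counts. Counting intervals are exact Clopper-Pearson 95% intervals. The ratio of RSEM over kallisto used CPM. Sequences came from GENCODE M21 transcripts and were grouped at 10% edit distance (edlib). The ratio code was tested on simulated data. No test between conditions was possible with 1 group.

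The members, the list of known symbols and the protein lists were chosen with earlier results of these data known. Named were the 8 most abundant members per biotype, the 5 highest and 5 lowest ratios of each kind among members of at least 100 counts, the listed symbols, the 4 entries on each side of the minimum, the 5 members of highest TPM, the highest and lowest gene of each protein list and the 5 entries below the minimum with the highest kallisto counts. Alternatives were DESeq2 size factors, library totals, other priors and minimums, TPM, kallisto and single libraries.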

Additional observations from a re-analysis of the deposited data

Results flagged for a closer look

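Signal also appeared outside the members, in entries that RSEM placed below 10 counts. Kallisto gave at least 10 estimated counts to each of 410 such entries, and 25302 counts to all entries below the minimum. The highest was Gm25605, an snRNA entry of 124 nt on chromosome 13, with 1013 estimated counts over both libraries (370 in replicate 2 and 643 in replicate 1) against 1 expected count by RSEM. Gm24339, a snoRNA entry of 76 nt on chromosome 9, had 836 (156 in replicate 2 and 680 in replicate 1) against 0. Gm24996, an snRNA entry of 99 nt on chromosome 2, had 812 (549 in replicate 2 and 263 in replicate 1) against 0. Gm24500, a snoRNA entry of 124 nt on chromosome 15, had 659 (345 in replicate 2 and 314 in replicate 1) against 3. Gm23722, a snoRNA entry of 130 nt on chromosome 1, had 562 (303 in replicate 2 and 259 in replicate 1) against 1. The RSEM effective length in replicate 1 was 0 nt for the first 4 and 1.06 nt for Gm23722, and the kallisto effective length lay between 20.0 and 21.7 nt. Gm25605, Gm24339, Gm24996 and Gm23722 lie within Aoah, Cep295, Nfe2l2 and Rnf149 on the same strand, and the part of host reads was not tested.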

How the results depend on the processing

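The 82 members became 64 at a minimum of 50 counts, 67 at 5 counts in each library and 487 by kallisto. With entries of identical sequence counted once there were 62, an alternative chosen after seeing the data. For snRNAs the replicate median of -0.71 was -0.065 with TPM and -1.05 with identical sequences summed, and 24.2% in place of 45.5% were more than 2-fold lower with TPM. For scaRNAs the replicate median of -1.38 was -1.21 with library totals, -1.71 by kallisto and -0.99 with TPM. The snoRNA median of -1.81 lay between -2.19 and -1.26 under the alternatives, and each biotype's median stayed below 0 in all of them. Library totals put the median of all genes at 0.18, against 0.01 with TMM. For the TPM ratios no median of all genes is given, but their median TPM was 3.02 in replicate 2 and 2.18 in replicate 1. The median TPM by kallisto was 288.0 for snRNAs, 40.0 for snoRNAs and 115.9 for scaRNAs, and per kilobase of annotated length the CPM were 179.8, 13.2 and 79.7. TPM shares by kallisto were 1.23%, 0.262% and 0.302%, and the scaRNA share of counts was 0.113%. The RSEM over kallisto median turned negative with unscaled counts for snRNAs (-0.45) and scaRNAs (-0.38). With log2(TPM + 1) it was 2.92 for snRNAs, 2.28 for snoRNAs and 1.44 for scaRNAs, with 3.03%, 9.76% and 0% more than 2-fold lower. Over entries chosen by kallisto alone it was -4.24, -4.22 and -3.75, with 87.6%, 92.1% and 72.7% more than 2-fold lower. With identical sequences summed it was 0.041 for snRNAs, with 26.3% more than 2-fold lower. From single libraries the scaRNA median lay between 0.22 and 0.30, the snRNA median between 0.13 and 0.22, and the snoRNA share more than 2-fold lower between 22.0% and 36.6%. On the TPM scale the ratio of RSEM over kallisto changed sign for Gm23119 (0.63), Gm26397 (3.56) and the 216 nt entries of Rnu3b1, Rnu3b2, Rnu3b3 and Rnu3b4 (0.79 each). At a minimum of 5 TPM, 17 protein genes reached it in both libraries. The cause of these changes was not tested. No paired analysis was possible because the labels hold 1 group. Counting error limits members near 10 counts and those at 0 in 1 library.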
